A study of Mus musculus with 11 samples.

Results

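The genes described here are 32 genes of endoplasmic reticulum (ER) stress and the unfolded protein response (UPR), out of 55487 genes in the files. They were chosen by symbol, from a list of UPR sensors, ER chaperones, ER-associated degradation and the PERK/ATF4 arm. No cut on measured values was used to choose them, but members and the other gene lists were chosen with earlier results of these data known. All 32 were found and passed the filter on low counts, which left 16252 genes for testing. *Ddit3* is present on 2 rows, and the row that holds its counts was used.

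Islets of adult male C57BL/6JRj mice were kept in culture for 20 h, either with IFNγ at 50 pg/mL or without it, then dispersed. Beta cells were sorted by FACS as EpCam+, CD24low and CD71+ cells, and the treated ones were split by surface PD-L1. The 11 RNA-seq libraries comprise 4 of control, 4 of PD-L1high and 3 of PD-L1low beta cells, and replicate 1 has no PD-L1low library. The labels name no allele and no other agent, and do not say how many mice gave each library, so p-values measure only the spread between these libraries.

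The ER of a beta cell folds proinsulin in large amounts. When unfolded protein builds up, 3 sensors in the ER membrane respond. IRE1α splices the mRNA of the transcription factor XBP1, ATF6 is cut to release a transcription factor, and PERK phosphorylates the initiation factor eIF2α. XBP1 and ATF6 raise ER chaperones and the degradation machinery, whereas phosphorylated eIF2α lowers translation in general and favours that of ATF4, which induces genes of amino acid supply and, under lasting stress, *Ddit3* (CHOP). Inflammatory cytokines are known to engage this response in rodent beta cells, which is why its genes are of interest after IFNγ. The libraries measure mRNA per gene. Splicing of *Xbp1*, cleavage of ATF6 and phosphorylation of eIF2α are not visible in gene counts.

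The DNA through which these factors act can be read upstream of many members. RefSeq promoter windows (GRCm38.p6, 250 bases before to 50 after the start) were available for 27 of the 32 members. The 250 bases before the start were searched on both strands for 4 motifs. They were the ER stress response element ERSE (CCAAT, 9 bases of any kind, CCACG) and ERSE-II (ATTGG, 1 base of any kind, CCACG). The others were UPRE (TGACG followed directly by TGG) and the element bound by ATF4, CARE (TGATG, 1 base of any kind, AA). ERSE was found in 7 of the 27 members (*Creld2*, *Derl3*, *Dnajc3*, *Hsp90b1*, *Hspa5*, *Pdia6* and *Syvn1*) and in 0.113% of all 32851 windows. ERSE-II was found in *Herpud1* and in 0.0304% of all windows. CARE was found in *Asns*, *Chac1* and *Herpud1* and in 3.45% of all windows. UPRE was found in 0 members and in 0.563% of all windows. In all, 10 of the 27 members held at least 1 of the 4 motifs, against 4.13% of all windows. Members are counted by gene (28 windows) and the shares by window. A match describes the letters and does not show that a factor binds there.

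The stretches below show these motifs in the 6 members with the highest level per length among the 10. The motif is in capitals, in either orientation, with up to 30 bases on each side, on the strand of the gene and upstream of the start.
Hsp90b1, ERSE in both orientations, chr10:86705503-86705686, minus strand: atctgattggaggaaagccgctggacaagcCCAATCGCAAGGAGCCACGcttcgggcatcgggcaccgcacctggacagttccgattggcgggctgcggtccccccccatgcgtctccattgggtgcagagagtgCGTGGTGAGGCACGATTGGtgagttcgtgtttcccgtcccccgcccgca
Hspa5, ERSE, chr2:34771995-34772073, plus strand: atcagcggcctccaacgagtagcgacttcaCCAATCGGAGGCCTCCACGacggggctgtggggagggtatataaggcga
Pdia6, ERSE, chr12:17266461-17266539, plus strand: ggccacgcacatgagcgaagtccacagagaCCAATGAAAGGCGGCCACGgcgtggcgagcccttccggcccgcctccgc
Asns, CARE, chr6:7693210-7693262, minus strand: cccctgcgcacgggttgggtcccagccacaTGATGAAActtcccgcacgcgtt
Herpud1, CARE on the opposite strand and then ERSE-II, chr8:94386287-94386417, plus strand: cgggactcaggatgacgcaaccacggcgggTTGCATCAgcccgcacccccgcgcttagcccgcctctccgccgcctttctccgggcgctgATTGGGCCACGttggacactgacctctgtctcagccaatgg
Dnajc3, ERSE, chr14:118937797-118937875, plus strand: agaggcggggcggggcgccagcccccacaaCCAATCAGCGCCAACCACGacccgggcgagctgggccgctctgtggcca

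Levels are given as CPM (counts relative to library size after TMM normalization), and each difference is a log2 fold change from edgeR's quasi-likelihood test in a model of condition and replicate number. The Benjamini-Hochberg adjustment covered the 16252 tested genes, with calls made at an adjusted p under 0.05. Library totals ran from 10422018 to 15810769 expected counts, and mitochondrial genes took 5.54% to 13.3% of them. The 9 beta cell markers summed to between 62030 and 95580 CPM. The 10 markers of alpha, delta and PP cells summed to 485 to 1803 CPM in the controls, 380 to 395 CPM in PD-L1low and 808 to 2084 CPM in PD-L1high cells, and so were lowest in the PD-L1low group. Of the 9 tested, edgeR called 4 higher in PD-L1high than in PD-L1low cells (*Ppy*, *Pyy*, *Sst* and *Gcg*), beside 0.732% of all tested genes. *Ppy* differed most, by 4.16 on the log2 scale (adjusted p = 1.61e-10, edgeR). In PD-L1low versus control cells *Ppy* (-3.49) and *Pyy* (-2.76) were called lower, beside 0.08% of all genes. In PD-L1high versus control cells *Ppy* was called higher (0.67), beside 0.991%. Of 12 acinar markers only *Bhlha15* reached 1 CPM, *Prss2* was at 0, leukocyte markers summed to at most 4.44 CPM and endothelial and stromal markers to at most 0.966 CPM. The 5 duct markers summed to 370 to 786 CPM. The part that cells of these other types take in the values below was not tested. In sorted cells measured in bulk, a change in the mix of cells and a change in RNA per cell cannot be told apart.

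None of the 32 members was called in any of the 3 comparisons. In PD-L1high versus control cells edgeR called 0 of 32 members, beside 0.991% of all tested genes. There 1 member (*Ppp1r15b*) had an unadjusted p under 0.05, against 7.65% of all genes. In PD-L1low versus control cells it called 0 of 32, beside 0.08% of all genes. Here 2 members (*Syvn1* and *Chac1*) had an unadjusted p under 0.05, against 2.1% of all genes. In PD-L1high versus PD-L1low cells it called 0 of 32, beside 0.732% of all genes. An unadjusted p under 0.05 was found for 2 members (*Chac1* and *Asns*), against 8.52% of all genes. DESeq2 and limma-voom also called 0 members in each comparison, with 2, 2 and 3 members at an unadjusted p under 0.05 by each tool. Of all genes, 8.31%, 2.44% and 9.0% were under 0.05 by DESeq2. By limma-voom the shares ran from 2.25% in PD-L1low versus control to 10.3% in PD-L1high versus PD-L1low cells. The shares of all genes called by these tools in the 3 comparisons are not given. Read against the shares of all genes called by edgeR, 0 calls among 32 genes is not in itself a result about the members. The sizes of the differences with their intervals are given for that reason.

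The differences were small, and their intervals were narrow for most members. The 95% interval of the fold change left out a 2-fold difference in either direction for 31 of the 32 members in each of the 3 comparisons, against 62.5%, 62.5% and 58.8% of all tested genes. The exception was *Derl3*, a derlin gene whose level was 0.322 to 2.74 CPM. A 1.5-fold difference was left out for 30 members in PD-L1high versus control, 27 in PD-L1low versus control and 24 in PD-L1high versus PD-L1low cells. The shares of all tested genes were 43.0%, 42.2% and 37.6%. Interval width depends on count level, and most members lie at higher levels than most tested genes. The shares of all genes are therefore not matched to the members in level. Without *Derl3*, the bounds of all intervals lay between -0.57 and 0.77 on the log2 scale in the first comparison, between -0.67 and 0.64 in the second and between -0.78 and 0.86 in the third. These bounds are for each gene alone and not for all 31 together.

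**Figure D1:**
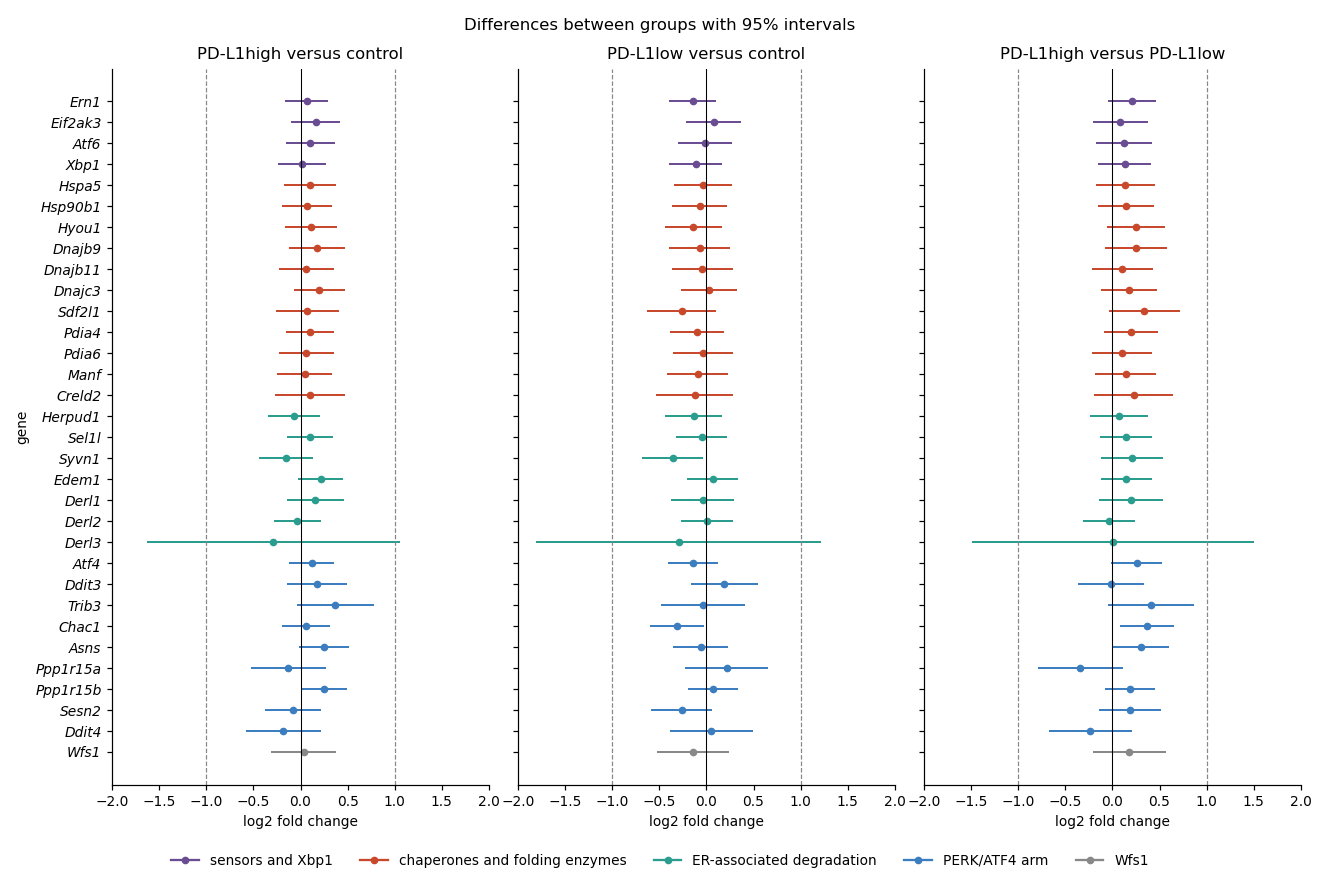
The log2 fold change (points) and 95% interval (lines) of each of the 32 genes, coloured by arm, in the 3 comparisons. Dashed lines mark a 2-fold difference in either direction. All intervals but that of *Derl3* lie between them.

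Both treated groups were compared with the same control libraries, so the medians are given side by side only. The median log2 fold change of the members was 0.08 in PD-L1high versus control cells, with 25 of 32 values above 0, where the median of all tested genes was -0.02. It turned to -0.02 without control replicate 1 and to -0.01 without PD-L1high replicate 1. These settings are nearly the same fit. Replicate 1 has no PD-L1low library, so its replicate term takes up the library that is left. It was -0.07 in PD-L1low versus control cells, with 8 of 32 values above 0 (but a median of 0.04 without control replicate 2 and 0.02 without PD-L1low replicate 2), and 0.16 in PD-L1high versus PD-L1low cells, with 28 of 32 above 0 (a median of 0.07 and 24 above 0 without PD-L1low replicate 2). The medians of all genes were within 0.01 of 0 in those comparisons.

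By level per length (CPM per kb of effective length, mean of all libraries), the members spanned a wide range. *Hsp90b1* (596 CPM per kb) and *Hspa5* (476 CPM per kb), the abundant chaperones GRP94 and BiP of the ER lumen, stood above 99.4% and 99.3% of the tested genes. *Dnajb9*, *Atf4*, *Xbp1* and *Manf* followed at 255, 204, 194 and 193 CPM per kb, of which the last 3 lay closer together than their SDs of 29.9, 18.5 and 45.9 CPM per kb. The lowest were *Ppp1r15a*, *Ddit4* and *Derl3* at 15.6, 9.62 and 2.40 CPM per kb. The sensor mRNAs *Ern1*, *Atf6* and *Eif2ak3* had 51.7, 32.3 and 23.6 CPM per kb, and the least abundant chaperone genes *Dnajb11*, *Sdf2l1* and *Creld2* 41.8, 40.1 and 36.9 CPM per kb.

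In GENCODE M21 on GRCm38 the sensor genes lie apart from each other: *Ern1* (ENSMUSG00000020715) on chromosome 11 from 106394650 to 106487852 (minus strand), *Eif2ak3* (ENSMUSG00000031668) on chromosome 6 from 70844515 to 70905245 (plus strand) and *Atf6* (ENSMUSG00000026663) on chromosome 1 from 170704674 to 170867771 (minus strand). Of the factors and targets that the results turn on, *Xbp1* (ENSMUSG00000020484) on chromosome 11 from 5520659 to 5525893 (plus strand), *Atf4* (ENSMUSG00000042406) on chromosome 15 from 80255184 to 80257541 (plus strand) and *Ddit3* (ENSMUSG00000025408) on chromosome 10 from 127290774 to 127296288 (plus strand) encode the transcription factors. Among their known targets are *Hspa5* (ENSMUSG00000026864) on chromosome 2 from 34771970 to 34777547 (plus strand), *Chac1* (ENSMUSG00000027313) on chromosome 2 from 119351229 to 119354381 (plus strand) and *Asns* (ENSMUSG00000029752) on chromosome 6 from 7675169 to 7693254 (minus strand). All are protein-coding genes, and counts were taken over their exons.

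**Figure D2:**
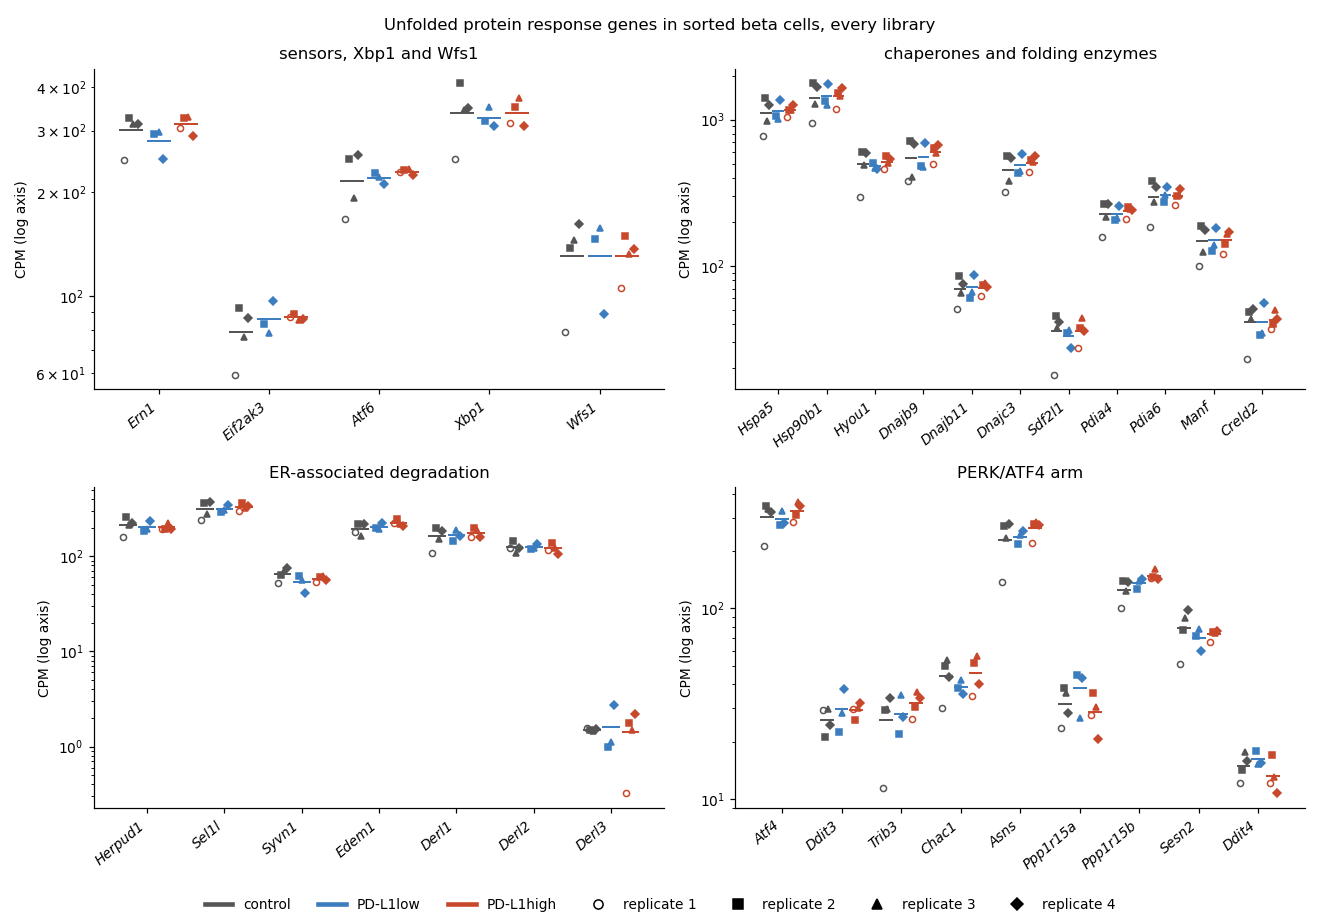
CPM of each member in each of the 11 libraries on log axes, by arm. Colours give the group, symbols the replicate number (open circles: replicate 1) and bars the group mean. Groups overlap for all members but *Ppp1r15b* in PD-L1high and control cells, and the open circle of control replicate 1 lies lowest for most genes.

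The sensors stayed close together in the 3 groups. *Ern1*, which encodes IRE1α, was at 247, 326, 314 and 314 CPM in control replicates 1 to 4, at 294, 298 and 249 CPM in PD-L1low replicates 2 to 4, and at 306, 327, 329 and 289 CPM in PD-L1high replicates 1 to 4. Control replicate 1 and PD-L1low replicate 4 were low and the groups overlapped. Its log2 fold change in PD-L1high versus control cells was 0.06 (standard error 0.10).

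*Eif2ak3*, which encodes PERK, was at 59.4, 92.6, 76.5 and 86.4 CPM in the controls, 82.9, 78.2 and 96.6 CPM in PD-L1low and 87.1, 88.8, 85.4 and 85.9 CPM in PD-L1high cells, in the same order of replicates. *Atf6* was at 167, 249, 191 and 255 CPM in the controls, 227, 220 and 210 CPM in PD-L1low and 229, 231, 232 and 223 CPM in PD-L1high cells. For both genes the PD-L1high libraries lay within a few CPM of each other and inside the range of the controls. Their log2 fold changes in PD-L1high versus control cells were 0.16 (95% interval -0.09 to 0.41) and 0.10 (-0.15 to 0.36).

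*Xbp1* was at 248, 411, 343 and 349.5 CPM in the controls, 320.0, 351 and 309.5 CPM in PD-L1low and 316, 351, 374 and 310.1 CPM in PD-L1high cells. The treated libraries all fell between the lowest and highest control. Its log2 fold change was 0.02 (-0.22 to 0.26) in PD-L1high and -0.12 (-0.38 to 0.15) in PD-L1low cells relative to control. These counts add the spliced and the unspliced form.

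The chaperones and folding enzymes, 11 genes that XBP1 and ATF6 induce under ER stress, showed no called difference. *Hspa5*, the BiP gene and the usual readout of ER load, was at 768, 1406, 985 and 1256 CPM in the controls, 1052, 1014 and 1353 CPM in PD-L1low and 1041, 1164, 1161 and 1266 CPM in PD-L1high cells. Its mean was 1104 ± 283 CPM in control (SD, n = 4) and 1158 ± 92.2 CPM in PD-L1high cells (n = 4), and the PD-L1high libraries lay inside the control range. *Hspa5* had a log2 fold change of 0.10 (-0.17 to 0.37) in PD-L1high versus control and 0.14 (-0.17 to 0.44) in PD-L1high versus PD-L1low cells.

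The other 10 genes of the group behaved alike. Relative to control cells, all 11 had a positive log2 fold change in PD-L1high cells (0.05 for *Manf* to 0.20 for *Dnajc3*), and 10 of 11 a negative one in PD-L1low cells (as low as -0.26 for *Sdf2l1*, an ER protein that works with BiP and its J-domain partners). Without control replicate 1 or without PD-L1high replicate 1, which are nearly the same fit, only 2 of the 11 were positive in PD-L1high versus control cells. In PD-L1low versus control cells the signs turned, with 8 of 11 positive in a model without the replicate term and 8 without control replicate 2, and 7 without PD-L1low replicate 2. The plain group means of *Hspa5*, 1104 ± 283 CPM in the controls and 1140.0 ± 186 CPM in PD-L1low cells, also ran the other way from its log2 fold change of -0.04. Between PD-L1high and PD-L1low cells the values ran from 0.10 for *Pdia6*, a disulfide isomerase, to 0.34 for *Sdf2l1*. In a model without the replicate term, 8 of 11 were positive in that comparison (median 0.03). Without PD-L1low replicate 2, 9 of 11 were positive (median 0.06). The smallest adjusted p of the group against control cells was 0.752 in PD-L1high and 1.0 in PD-L1low cells (edgeR). *Hsp90b1* had 0.07 in PD-L1high versus control cells, *Hyou1* (a large ER chaperone that acts as nucleotide exchange factor of BiP) 0.11, the BiP cochaperones *Dnajb9* 0.18 and *Dnajb11* 0.06, the disulfide isomerases *Pdia4* 0.10 and *Pdia6* 0.06, and *Creld2*, an ER stress-induced secretory pathway gene, 0.10.

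ER-associated degradation takes misfolded proteins back to the cytosol. Its 7 members were at mixed signs in PD-L1high versus control cells, with 3 above and 4 below 0. *Syvn1*, the ubiquitin ligase HRD1, was at 52.2, 62.8, 69.3 and 75.1 CPM in the controls, 61.3, 56.5 and 41.4 CPM in PD-L1low and 53.8, 60.1, 62.4 and 56.3 CPM in PD-L1high cells. The control and PD-L1low values overlapped, and PD-L1low replicate 4 was the lowest of all 11. In PD-L1low versus control cells it had -0.36 on the log2 scale (-0.67 to -0.05), with an unadjusted p of 0.0263 and an adjusted p of 1.0 (edgeR).

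The partner of HRD1, *Sel1l*, was at 313 ± 65.4 CPM in the controls, 316 ± 29.1 CPM in PD-L1low and 329 ± 25.0 CPM in PD-L1high cells. *Herpud1*, which organizes the HRD1 complex, was at 214 ± 39.9, 203 ± 27.1 and 202 ± 15.5 CPM in the same groups. *Edem1*, which directs misfolded glycoproteins to degradation, was at 195 ± 28.8, 205 ± 17.3 and 224 ± 14.5 CPM. None of these differences passed the test, nor did those of *Derl1* (log2 fold change 0.16 in PD-L1high versus control cells) and *Derl2* (-0.03), which take part in moving proteins out of the ER.

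In the PERK/ATF4 arm *Atf4* was at 212, 346, 334 and 321 CPM in the controls, 274, 327 and 279 CPM in PD-L1low and 283, 309, 362 and 344 CPM in PD-L1high cells. The groups overlapped, but PD-L1high exceeded PD-L1low cells within each of replicates 2 to 4. Between the sorted populations the log2 fold change was 0.26 (standard error 0.12, unadjusted p = 0.0504, adjusted p = 0.587, edgeR).

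*Ddit3*, which encodes the proapoptotic factor CHOP, was at 29.2, 21.2, 29.7 and 24.5 CPM in the controls, 22.4, 28.3 and 37.8 CPM in PD-L1low and 29.8, 25.8, 30.03 and 31.99 CPM in PD-L1high cells. The 3 groups overlapped. Its log2 fold change was 0.17 (-0.13 to 0.48) in PD-L1high and 0.19 (-0.16 to 0.53) in PD-L1low versus control cells.

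*Chac1*, a glutathione-degrading enzyme induced by ATF4 and CHOP, had the smallest unadjusted p of the 32 genes. It was at 29.9, 49.9, 53.6 and 43.6 CPM in the controls, 38.1, 42.1 and 35.7 CPM in PD-L1low and 34.8, 51.6, 56.2 and 40.1 CPM in PD-L1high cells. PD-L1high exceeded PD-L1low cells in each of the 3 replicates that have both, while the groups as a whole overlapped. Between the sorted populations its log2 fold change was 0.37 (0.09 to 0.65, unadjusted p = 0.0121, adjusted p = 0.423, edgeR), and it was -0.31 (unadjusted p = 0.0271, adjusted p = 1.0, edgeR) in PD-L1low versus control cells.

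*Asns*, asparagine synthetase and the holder of the CARE printed above, was at 137, 271, 235 and 277 CPM in the controls, 218, 243 and 254 CPM in PD-L1low and 220, 279, 285 and 274 CPM in PD-L1high cells. Control replicate 1 was far below the rest. PD-L1high and PD-L1low cells differed by 0.31 on the log2 scale (0.02 to 0.59, unadjusted p = 0.0382, adjusted p = 0.554, edgeR), and *Asns* was higher in PD-L1high cells in each of 3 replicates. *Trib3*, a pseudokinase induced by ATF4 and CHOP, was at 11.4, 29.2, 29.6 and 34.0 CPM in the controls, 22.0, 34.98 and 26.8 CPM in PD-L1low and 26.3, 30.5, 36.5 and 33.8 CPM in PD-L1high cells. Its log2 fold change of 0.37 (-0.03 to 0.77) in PD-L1high versus control cells was the largest among the 32 genes, and the control value of 11.4 CPM in replicate 1 was less than any other library's.

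*Ppp1r15b* (CReP), the constitutive partner of the phosphatase that restores eIF2α, was at 101, 139, 124 and 138 CPM in the controls, 127, 139 and 143 CPM in PD-L1low and 144, 146, 161 and 143 CPM in PD-L1high cells. It was the only member whose PD-L1high libraries all lay above all controls, as did 2.68% of all tested genes. Relative to control cells it differed by 0.25 on the log2 scale (0.02 to 0.48, unadjusted p = 0.0321, adjusted p = 0.587, edgeR). *Ppp1r15a* (GADD34), the partner that stress induces, had a log2 fold change of -0.13 (-0.52 to 0.26) in the same comparison. *Sesn2* and *Ddit4*, stress-induced inhibitors of mTORC1, had -0.08 and -0.18.

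*Wfs1*, an ER membrane protein gene whose loss causes Wolfram syndrome with diabetes, was at 131 ± 36.1 CPM in the controls, 130 ± 36.6 CPM in PD-L1low and 131 ± 18.4 CPM in PD-L1high cells. The log2 fold change in PD-L1high versus control cells was 0.03 (-0.30 to 0.37).

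Within replicates the sign of the difference varied. The median log2 difference of PD-L1high from control cells over the 32 genes was 0.38 in replicate 1, -0.07 in replicate 2, 0.17 in replicate 3 and -0.12 in replicate 4, with 29, 10, 27 and 6 genes above 0. *Ddit3* and *Ppp1r15b* were higher in all 4, against 7.85% of tested genes. For PD-L1low versus control cells the medians were -0.35, 0.03 and -0.01 in replicates 2 to 4, and 8 genes were lower in all 3 (10.6% of tested genes). PD-L1high cells were higher than PD-L1low cells in all 3 replicates for 9 genes (*Ern1*, *Atf6*, *Xbp1*, *Hyou1*, *Sdf2l1*, *Atf4*, *Trib3*, *Chac1* and *Asns*), and lower in all 3 for *Ddit4*, against 16.4% and 16.0% of tested genes, with medians of 0.18, 0.17 and -0.06.

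Much of the spread lay between libraries of the same group. Control replicate 1 was the lowest of the 4 controls for 28 of the 32 members (35% of all tested genes), the exceptions being *Edem1*, *Derl2*, *Derl3* and *Ddit3*, and the lowest of all 11 libraries for 25 (20.8% of all tested genes). Over the 31 members without *Derl3* its mean log2 deviation from the mean of all libraries was -0.52, which is 0.695 of that mean, and over the chaperones -0.65. Within the controls *Sdf2l1* ran from 18.1 to 45.3 CPM, *Trib3* from 11.4 to 34.0 CPM and *Hspa5* from 768 to 1406 CPM. The same library had the highest mitochondrial share (13.3%) and the lowest beta cell marker sum (62030 CPM), with *Ins2* at 21290 CPM where the other controls had 32380 to 43140 CPM. PD-L1high replicate 1, the lowest of its group for 22 of 32 members (22.0% of tested genes), had the lowest marker sum of its group (63290 CPM) and *Ins2* at 24390 CPM, where the other PD-L1high libraries had 33210 to 42400 CPM. The part of RNA quality, cell mix or insulin mRNA in these low values was not tested.

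**Figure D3:**
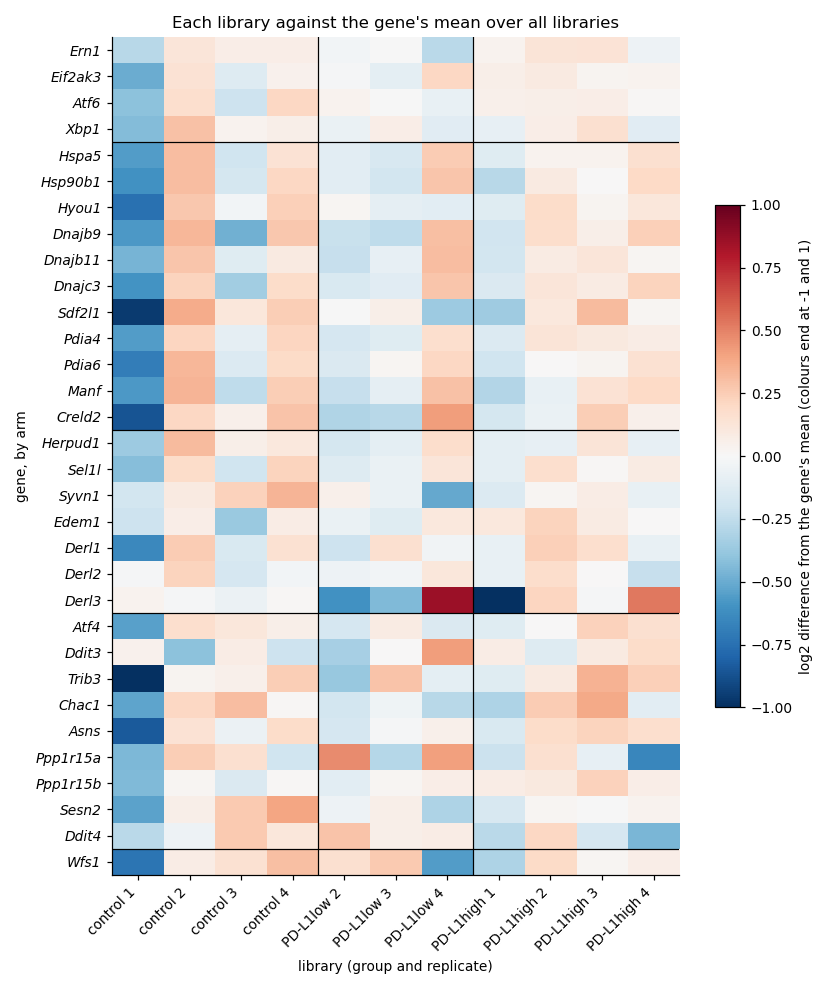
The log2 difference of each member (rows, by arm) in each library (columns, by group) from the gene's mean over the 11 libraries. Colours end at -1 and 1, which *Trib3* in control replicate 1 and *Derl3* in PD-L1high replicate 1 exceed. The column of control replicate 1 is blue for nearly every gene, at a mean of -0.52.

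A test between the 4 replicate numbers, with condition in the model, called 0 of 32 members by edgeR, beside 0.4% of all tested genes, but 16 members had an unadjusted p under 0.05, against 13.7% of all genes. Of these, 10 were among the 11 chaperones and folding enzymes (all but *Dnajb11*), 4 in the PERK/ATF4 arm (*Atf4*, *Trib3*, *Chac1* and *Asns*), and the others were *Sel1l* and *Wfs1*. Limma-voom called 0 members with 16 under 0.05, against 16.1% of all genes. DESeq2 called 7 (*Asns*, *Chac1*, *Dnajb9*, *Dnajc3*, *Hsp90b1*, *Hyou1* and *Sdf2l1*), beside 4.5% of all genes, and edgeR without a filter on low counts called 10, beside 4.91% of the genes it tested. Without control replicate 1, edgeR called 0 and 3 members had an unadjusted p under 0.05, against 5.95% of all genes.

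Other genes of the pathway were described from lists of further ER folding enzymes (17 tested genes), degradation factors (20), translocation into the ER (16), targets of the integrated stress response (22), eIF2 with eIF2B and its kinases (11) and UPR signalling (10). The first 3 lists had medians of 0.08, 0.05 and 0.11 in PD-L1high versus control cells, with 12 of 17, 17 of 20 and 14 of 16 genes above 0, where 47.0% of all tested genes were above 0. Between the sorted populations their medians were 0.14, 0.15 and 0.20. How far these values rest on single libraries was not examined. Of the 96 genes on the 6 lists, 2 were called in any comparison. Of all tested genes, 0.991% were called in PD-L1high versus control, 0.08% in PD-L1low versus control and 0.732% in PD-L1high versus PD-L1low cells. *Eif2ak2* encodes PKR, an eIF2α kinase that double-stranded RNA activates and interferons induce. It was at 62.3, 42.6, 44.3 and 41.1 CPM in the controls, 53.6, 60.8 and 54.1 CPM in PD-L1low and 91.2, 101, 92.2 and 93.1 CPM in PD-L1high cells. All PD-L1high libraries lay above all controls, as for 2.68% of tested genes, and above all PD-L1low libraries, as for 4.41%. It rose in PD-L1high versus control cells by 1.01 on the log2 scale (standard error 0.13, adjusted p = 0.000262, edgeR), and was higher in PD-L1high than in PD-L1low cells by 0.69 (adjusted p = 0.0285, edgeR). In PD-L1low versus control cells the value was 0.32 (unadjusted p = 0.0402, adjusted p = 1.0, edgeR). The difference between the sorted populations lost its call without any 1 of PD-L1high or PD-L1low replicates 2 to 4 or control replicate 4 (adjusted p from 0.0517 to 0.245).

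*Creb3*, a transcription factor held in the ER membrane and released by cleavage like ATF6, was at 26.6, 33.7, 29.95 and 31.9 CPM in the controls, 28.3, 37.1 and 33.8 CPM in PD-L1low and 50.8, 52.7, 48.6 and 44.2 CPM in PD-L1high cells. Again all PD-L1high libraries lay above all controls, as for 2.68% of tested genes, and above all PD-L1low libraries, as for 4.41%. It rose in PD-L1high versus control cells by 0.69 on the log2 scale (standard error 0.13, adjusted p = 0.0172, edgeR). That call was lost without control replicate 1, 3 or 4 or PD-L1high replicate 1, 2 or 3 (adjusted p from 0.0513 to 0.157, edgeR). The fits without either library of replicate 1 are nearly the same. Between the sorted populations the value was 0.59 (adjusted p = 0.136, edgeR).

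**Figure D4:**
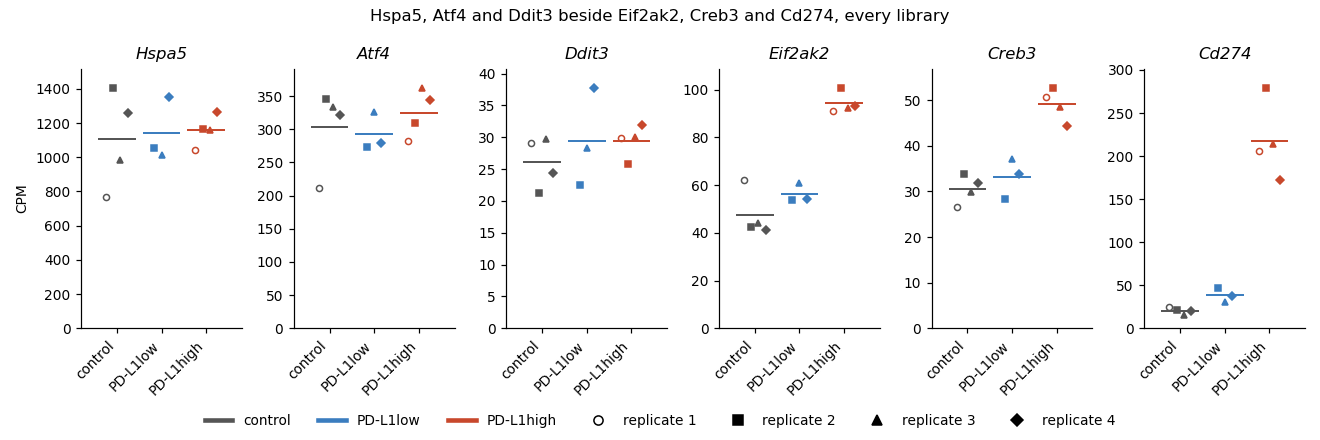
CPM in each library of *Hspa5*, *Atf4* and *Ddit3* beside *Eif2ak2*, *Creb3* and *Cd274*, the gene of PD-L1, with bars at the group means and axes from 0. The PD-L1high libraries of *Eif2ak2* (91.2 to 101 CPM) and *Creb3* (44.2 to 52.7 CPM) lie above all others, whereas the groups of the first 3 genes overlap. Of all tested genes, 2.68% had all PD-L1high libraries above all controls and 4.41% had them above all PD-L1low libraries. *Cd274* encodes the sorted protein.

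In the remaining genes of these lists the values with the smallest p, none of which was called, were as follows. In PD-L1high versus control cells *Dnajc10*, an ER disulfide reductase, had 0.23 on the log2 scale (adjusted p = 0.65, edgeR), *Sec62*, a translocon component, 0.27 (adjusted p = 0.599, edgeR) and *Rtcb*, the ligase that joins the *Xbp1* exons, 0.37 (adjusted p = 0.196, edgeR). Between the sorted populations the amino acid synthesis gene *Psat1* had 0.54 (adjusted p = 0.208, edgeR) and *Eif4ebp1*, a translation inhibitor induced by ATF4, 0.51 (adjusted p = 0.272, edgeR). *Eif4ebp1* and *Psph* had -0.45 and -0.53 in PD-L1low versus control cells. The 22 integrated stress response targets had a median of 0.29 between the sorted populations, with 20 above 0 and 5 at an unadjusted p under 0.05, where 49.5% of all tested genes were above 0 and 8.52% under 0.05. They had a median of -0.19 in PD-L1low versus control cells, with 3 above 0 and 4 at an unadjusted p under 0.05, where the shares of all tested genes were 50.1% and 2.1%. For this list too, dependence on single libraries was not examined.

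Cytosolic heat shock genes (11 tested) had 0 calls by edgeR in each comparison, with 0, 0 and 2 at an unadjusted p under 0.05, against 7.65%, 2.1% and 8.52% of all tested genes. The 12 genes of the IFNγ response were chosen as known targets, with earlier results of these data known, and include *Cd274*, whose difference the sort on PD-L1 fixes in part, so their counts describe the libraries and are no independent evidence. Of these, 12 were called higher in PD-L1high than in control cells (median log2 fold change 3.45), 7 in PD-L1low than in control cells (median 1.51) and 12 in PD-L1high than in PD-L1low cells (median 2.22). Without *Cd274* the counts were 11, 6 and 11 of 11 genes. In the same libraries the interval of every UPR member but *Derl3* lay below a 2-fold difference.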

How the data were processed

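The authors aligned paired, strand-specific reads (NuGEN Ovation Solo, random primers, rRNA depleted) with STAR 2.5.2b to GRCm38.p6 and GENCODE M23 and counted them per gene with RSEM, whose version is not given in the sources used here. The values the authors deposited are RSEM expected counts, not normalized, and an effective length in bases per gene and library, an other quantity used only for CPM per kb. Duplicate removal is not given in the sources used here.

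Expected counts were rounded to whole numbers (a shift of no library's total above 0.000388%). Genes were kept by filterByExpr (count minimum 10) and tested with edgeR 4.0.16 (R 4.3.3, limma 3.58.1) with TMM, robust quasi-likelihood and all 11 libraries. The study's methods name a batch term (DESeq2 1.32.0), for which the replicate number was used. Alternatives were no replicate block, RLE or library size only, no filter, a count minimum of 50, DESeq2 1.42.0, limma-voom and leaving out each library, 18 in all. The procedure was run on simulated data that held no differences between replicate numbers, and no statement here rests on that run. Symbols covered 55141 of 55487 genes.

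Members, lists and rules were chosen with earlier results of these data known. The named genes are all members and, of the other lists, every called gene and otherwise up to 2 a list with the smallest p, of which some are given. Values in every library are given for the sensors, *Xbp1*, *Atf4*, *Ddit3*, *Hspa5* and the 6 members with the smallest p. Sequences are from RefSeq.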

Additional observations from a re-analysis of the deposited data

Results flagged for a closer look

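In 4 of 68 groups of 4 libraries examined (the 32 members, *Eif2ak2* and *Creb3* in control and in PD-L1high cells), 1 library stood apart from the other 3 by more than Dixon's 95% limit, which is set on the gap as a share of the group's range. Chance alone flags about 5% of such groups. *Ern1* was at 247 CPM in control replicate 1 and at 314 to 326 CPM in the other controls. *Eif2ak2* was at 62.3 CPM in control replicate 1 and at 41.1 to 44.3 CPM in the other controls, in the direction of its rise in PD-L1high cells. *Herpud1* was at 225 CPM in PD-L1high replicate 3 and at 193 to 195 CPM in the others. *Asns* was at 220 CPM in PD-L1high replicate 1 and at 274 to 285 CPM in the others.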

How the results depend on the processing

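In the 3 comparisons 0 members were called under each of the 18 alternatives. The smallest adjusted p in any of them was 0.174, for *Dnajc3* in PD-L1high versus control cells without control replicate 2. In that setting 7 members had an unadjusted p under 0.05, against 15.6% of all genes. The members' median log2 fold change ran from -0.02 to 0.19 in PD-L1high versus control (below 0 in 2 of 18), from -0.12 to 0.04 in PD-L1low versus control (below 0 in 15) and from 0.06 to 0.22 in PD-L1high versus PD-L1low cells (below 0 in 0). The 2 below 0 in the first comparison are the fits without either library of replicate 1, which are nearly the same. The replicate numbers were checked for pairing: the correlation of deviations of same-numbered libraries ran from -0.33 to 0.41 and was over 0.1 for 6 of 10 pairs. Since it was not so for every pair and the labels name no shared mouse or day, pairing was not established, and the replicate term stands for the batch term of the study's methods. With no replicate block, 0 members were called in each comparison by edgeR, and the medians were 0.05, 0.02 and 0.06. In that setting 0 members had an unadjusted p under 0.05, against 5.65%, 1.37% and 4.99% of all genes. Between replicate numbers, the 0 calls became 10 with no filter (beside 4.91% of the genes tested there) and 7 with DESeq2 (beside 4.5%). They became 2 without PD-L1high replicate 1 (*Hyou1* and *Trib3*), and leaving out each library gave 0 to 2. The share of all genes called was not computed for the fits that leave out a library. Those 2 calls are therefore not read as a result about the members. *Eif2ak2* kept its call in PD-L1high versus control cells under all 18 alternatives (adjusted p from 1.93e-11 to 0.00497). The 2-fold limit was left out by 29 to 31 members under the alternatives that give intervals. Changes within the intervals, which for some members reach past 1.5-fold and for *Derl3* past 2-fold, could have been missed, and changes in splicing, protein or translation cannot be seen in these counts.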
